A study of Mus musculus with 8 samples.

Results

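The conjugation enzymes and epoxide hydrolases of the mouse kidney were followed in 3 genotypes. They are the genes whose symbols begin with the family names of the UDP-glucuronosyltransferases (Ugt1a, Ugt2a, Ugt2b, Ugt3a), glutathione S-transferases (Gsta, Gstm, Gstp, Gstt, Gsto, Gstk), microsomal glutathione S-transferases (Mgst), sulfotransferases (Sult) and epoxide hydrolases (Ephx), followed by a digit. Of 22180 genes with a probe set of their own, 56 fitted this rule, and 23 of them lay above the filter on low values that admitted 7145 genes to the tests. The label fits the genes by name. Another 13 genes of these families, among them the Ugt1a genes and Gsta1 and Gsta2, were covered by probe sets that name several genes, and they are not analysed here.

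Whole kidneys of mice aged 2 months were measured by arrays, 1 per sample. Wild type mice (n = 2) were set beside Col4a3-/- mice (n = 3), called single mutants, and Col4a3-/-OPN-/- mice (n = 3), called double mutants, which lack osteopontin as well. Col4a3 encodes a collagen chain of the membrane on which the glomerular filter rests, and mice without it serve as a model of Alport syndrome, a hereditary kidney disease. Strain and sex are not given in the labels used here.

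These enzymes make foreign and internal compounds easier to excrete. Glucuronosyltransferases attach a sugar acid from UDP-glucuronate, sulfotransferases attach sulfate from the donor PAPS, glutathione S-transferases attach glutathione to reactive electrophiles, and epoxide hydrolases open epoxides with water. In the kidney they are known chiefly from the proximal tubule, and several are known to differ between male and female rodents.

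Some facts of the whole series bear on every value below. Values are log2 expression values, so a difference of 1 is a 2-fold change. Array medians over all probe sets lay between 5.18 and 5.25. Sex was read from Xist, the silencer RNA of the inactive X chromosome, and from 3 Y-linked genes. On 4 arrays Xist lay between 8.85 and 10.02 and the Y-linked mean at or below 4.51, and these were read as female. On the other 4 arrays Xist lay between 4.52 and 4.64 and the Y-linked mean at or above 7.01. Both wild type mice, single mutant 2 and double mutant 3 were thus read as male, and single mutants 1 and 3 and double mutants 1 and 2 as female. Col4a3 itself lay between 8.42 and 8.77 in wild type, between 6.60 and 7.67 in single and between 6.13 and 7.60 in double mutants. The osteopontin gene was not analysed here. Single mutant 2 stood apart: over the 7145 genes its r was 0.865 and 0.839 with single mutants 1 and 3, 0.948 with double mutant 3, and the r of single mutants 1 and 3 was 0.959. All 9 markers of the early proximal tubule lay above the filter, as befits kidney, and 0 of 5 adrenal markers did.

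Because no wild type female was measured, each comparison with wild type is given in a fit of the groups alone and in a fit with a term for sex, both in limma over all 7145 genes with Benjamini-Hochberg adjustment and a threshold of 0.05. The sex term rests on the 6 mutants and assumes that wild type kidneys differ by sex to the same extent, which was not measured. A further description, free of that assumption, sets the 2 male mutants beside the 2 wild type males, with no test since each mutant genotype has 1 male.

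Promoter sequence is shown for 3 members whose values differed between the sexes. The sequences are the 250 bases before the transcription start in RefSeq, build GRCm38.p6, written 5′ to 3′ on the gene's strand. Ugt2b37 and Ugt2b34 lie in the same Ugt2b cluster on chromosome 5 and differed between the sexes in opposite directions, and Gsta3 was higher in female mutants. The capitals mark a match to the antioxidant response element core, TGACNNNGC, the sequence bound by NRF2.
Ugt2b37, chr5:87254789-87255038, minus strand: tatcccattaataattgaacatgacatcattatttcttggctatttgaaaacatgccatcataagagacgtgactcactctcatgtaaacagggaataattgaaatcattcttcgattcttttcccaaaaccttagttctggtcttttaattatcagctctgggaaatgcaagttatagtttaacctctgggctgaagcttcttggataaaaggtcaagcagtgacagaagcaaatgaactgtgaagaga
Ugt2b34, chr5:86906938-86907187, minus strand: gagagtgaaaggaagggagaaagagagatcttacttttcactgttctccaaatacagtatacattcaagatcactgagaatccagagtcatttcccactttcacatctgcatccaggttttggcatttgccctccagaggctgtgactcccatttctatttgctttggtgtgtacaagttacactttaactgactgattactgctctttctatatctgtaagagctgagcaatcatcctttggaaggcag
Gsta3, chr1:21240335-21240584, plus strand: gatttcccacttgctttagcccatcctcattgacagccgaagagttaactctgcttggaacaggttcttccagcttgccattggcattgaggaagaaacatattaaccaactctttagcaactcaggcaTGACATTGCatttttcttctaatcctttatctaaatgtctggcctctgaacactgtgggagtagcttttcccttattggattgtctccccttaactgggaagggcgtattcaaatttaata
The letters were searched on both strands of the promoter windows. Of 19 tested members with a window, 3 held the antioxidant core (Gsta3, Gstm7 and Mgst1), which is 15.8 percent against 11.5 percent of 27025 genes. Of all 48 members with a window the same 3 held it, which is 6.25 percent and under that share. The xenobiotic response element core, GCGTG, was found in the tested members Gstm1, Gstp1, Mgst3 and Sult1d1, which is 21.1 percent against 30.9 percent. Of all 48 members 16.7 percent held it. No tested member held both. The windows of Ugt2b37 and Ugt2b34 held neither. Such matches describe letters and are not binding sites.

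Ephx2, the soluble epoxide hydrolase, was lower in every mutant of both sexes. The enzyme turns epoxides of arachidonic acid into diols. Ephx2 (chromosome 14, 66084372 to 66124522) measured 10.71 and 10.94 in wild type, 9.44, 9.41 and 9.58 in single mutants 1 to 3, and 9.93, 9.45 and 9.55 in double mutants 1 to 3. All 6 mutants of both sexes lay below both wild type mice, and the male values, 9.41 and 9.55, lay beside those of the females. The group means ± SD were 10.82 ± 0.17 (n = 2), 9.48 ± 0.09 (n = 3) and 9.64 ± 0.25 (n = 3). Fitted on the groups alone, the difference was -1.35 in single mutants (SE 0.17, adjusted p = 0.0623 in limma) and -1.18 in double mutants (SE 0.17, adjusted p = 0.0669), both short of the threshold. Once sex was in the fit, Ephx2 was 2.69-fold lower in the single mutant (difference -1.43, SE 0.20, adjusted p = 0.00759) and 2.40-fold lower in the double mutant (difference -1.26, SE 0.20, adjusted p = 0.0110). Its own difference between the sexes was 0.12 (SE 0.16). In whole kidney, fewer cells of a type and less RNA per cell cannot be told apart, here and in all that follows. Without wild type 2 neither call stood, and without single mutant 2 the call for the single mutant was lost.

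Ephx1, the microsomal hydrolase of foreign epoxides, followed another course. It measured 8.13 and 8.04 in wild type, 8.28, 8.16 and 8.53 in single and 8.77, 8.47 and 7.44 in double mutants, and it passed in no comparison. The other hydrolases, Ephx3 and Ephx4, had means of 5.16 and 4.52, under the filter.

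**Figure D1:**
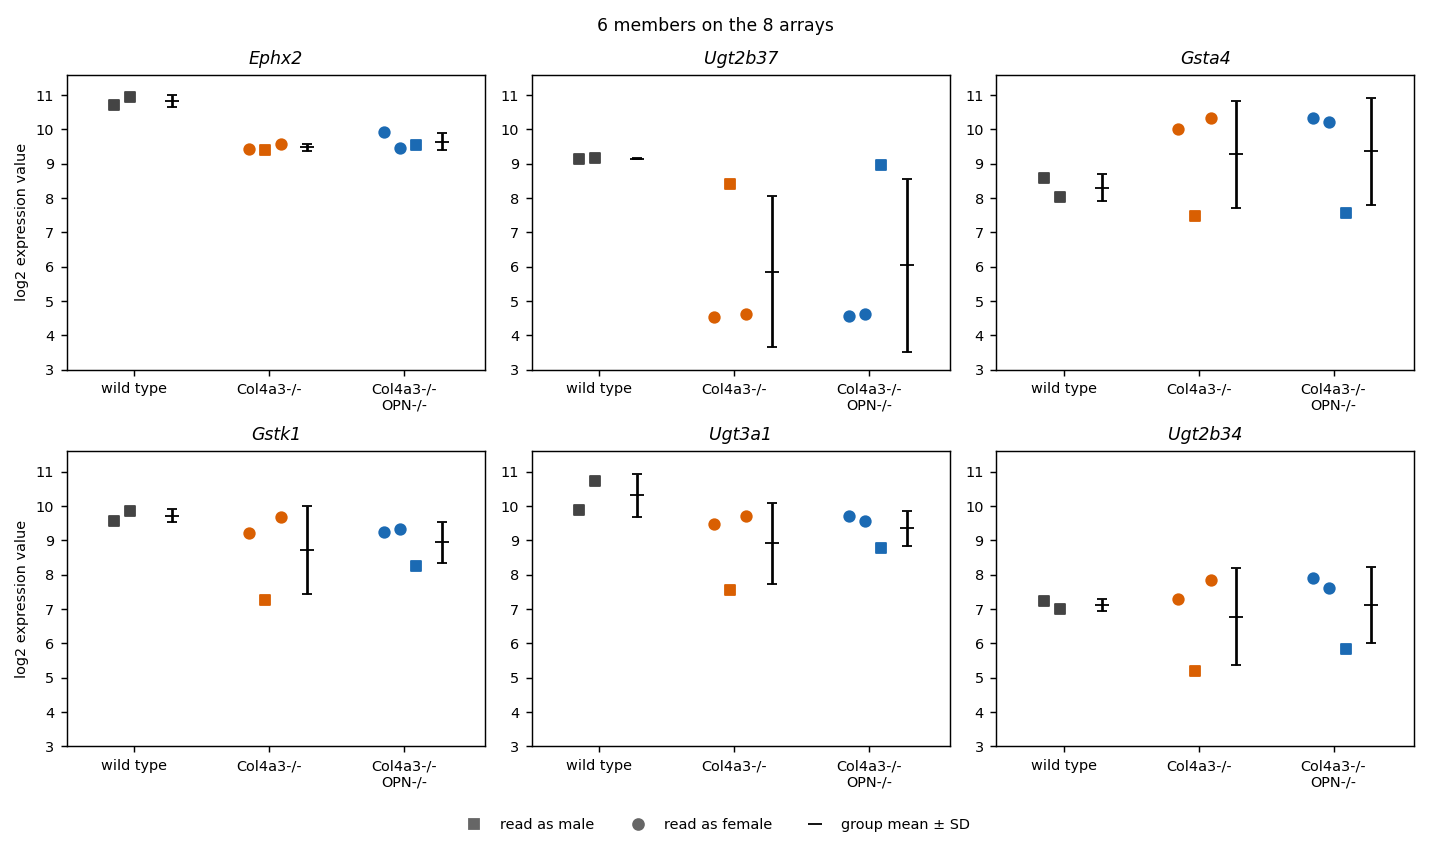
Log2 expression value of 6 members on each of the 8 arrays, by genotype, with squares for mice read as male, circles for mice read as female, and bars for the group mean ± SD (n = 2, 3 and 3). Ephx2 is lower in all 6 mutants, Ugt2b37 is low only in the 4 female mutants, and the other 4 genes are lowest in the 2 male mutants.

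Taken as a family, the tested members lay lower in mutants, and most so in the male mutants. In the fit of the groups alone limma called 0 of 23 members in the single mutant, where 0.0280 percent of all tested genes were called (0.0140 percent higher and 0.0140 percent lower), and 4 members had an unadjusted p under 0.05 beside 23.2 percent of all genes. It called 0 of 23 in the double mutant, beside 0.0840 percent of all genes (0.0560 percent higher and 0.0280 percent lower), and 3 members had an unadjusted p under 0.05 beside 21.6 percent. The members' median difference from wild type was -0.47 in the single and -0.31 in the double mutant, against -0.07 and -0.08 over all tested genes. In these values 18 of 23 members were below 0 in the single and 17 in the double mutant.

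With the sex term 15 of 23 members were lower in the single mutant, where 19.9 percent of all tested genes were lower, and 0 were higher beside 7.31 percent, or 27.2 percent in either direction. In the double mutant 13 of 23 were lower beside 17.8 percent, and 0 were higher beside 6.40 percent, or 24.2 percent in either direction. An unadjusted p under 0.05 was reached by 18 members in the single mutant, beside 43.3 percent of all genes, and by 16 in the double mutant, beside 41.7 percent. The members' median was -0.82 in the single and -0.77 in the double mutant. All tested genes had medians of -0.15 and -0.15 in this fit, so relative to that shift the members lay at -0.68 and -0.62. After cyclic loess the medians of all genes were -0.01 and -0.01, the relative medians of the members were -0.59 and -0.49, and 11 and 9 members were lower. The split of all called genes moved with this scaling, from 1424 lower and 522 higher to 935 and 924 in the single mutant, and from 1271 and 457 to 776 and 802 in the double mutant. For the members 0 were called higher under either scaling. These counts rest on a few arrays: without single mutant 2 they were 0 and 8, without wild type 2 both were 0, and without wild type 1 they were 10 and 7. Calls over all tested genes fell with them, to 0 and 846, 41 and 33, and 904 and 666 lower genes in the same order.

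**Figure D2:**
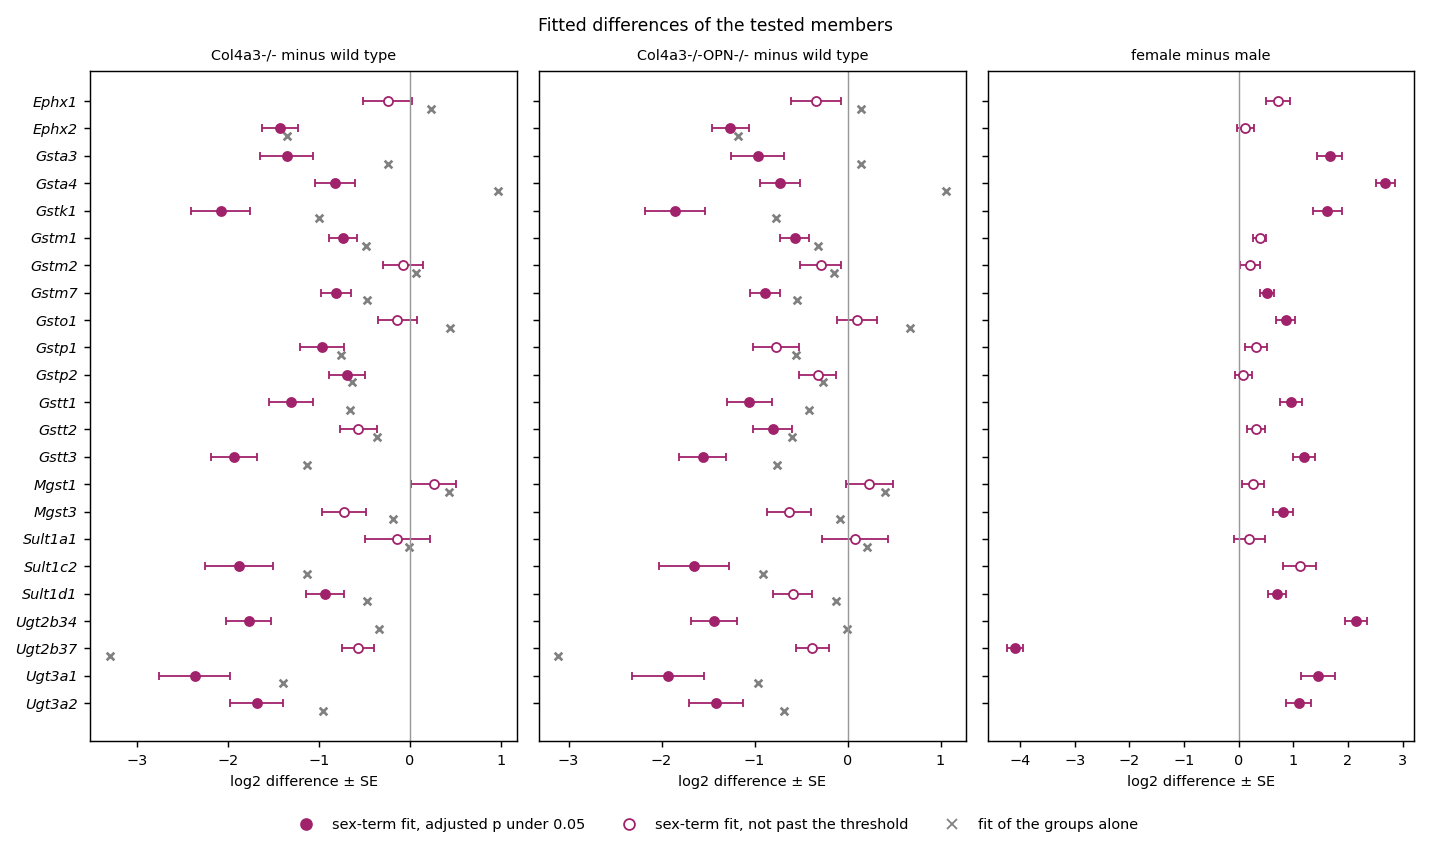
Fitted log2 differences ± SE of the 23 tested members for single mutant minus wild type, double mutant minus wild type and female minus male, with filled circles for an adjusted p under 0.05 in the sex-term fit, open circles for the rest, and crosses for the fit of the groups alone. With the sex term 15 and 13 members lie below 0 with filled circles, and 12 members are higher and 1 lower in females.

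The arrays show in which mice the members were low. Both male mutants lay below both wild type mice in 19 of 23 members, where 47.5 percent of all tested genes did so, and above both in 0, where 24.9 percent did. The male single mutant lay below the wild type mean in 20 members and the male double mutant in 21, with medians of -0.97 and -0.73 against -0.12 and -0.17 over all genes. The 4 female mutants lay below both wild type mice in 10 members, beside 23.8 percent of all genes, and above both in 5, beside 18.4 percent. Their medians were -0.22 in single and -0.22 in double mutants, against -0.04 and -0.03 over all genes. All 6 mutants lay below both wild type mice in 10 members, beside 21.4 percent of all genes, namely Ephx2, Gstm1, Gstm7, Gstp1, Gstp2, Gstt3, Sult1c2, Ugt2b37, Ugt3a1 and Ugt3a2. Both counts of 10 include Ugt2b37, which passed the filter only through the males and is not read against these shares. The count of 5 includes Ugt2b34, which passed only with the females and is likewise not read against its share.

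Markers of cell types moved over the same arrays. The mean of 9 early proximal tubule markers was 11.25 and 11.27 in wild type, 9.45 and 10.53 in the male single and double mutant, and between 10.41 and 11.14 in the female mutants. The mean of 7 late proximal tubule markers was 9.40 and 10.00 in wild type, 8.53 and 8.52 in the male mutants and between 7.92 and 8.16 in the females. Markers of macrophages (8 genes) lay between 6.42 and 6.61 in wild type, at 8.91 and 8.20 in the male single and double mutant, and between 7.40 and 8.52 in the females. Markers of fibroblasts and matrix (7 genes) lay between 6.96 and 7.08 in wild type, at 9.41 and 8.68 in the male mutants and between 7.98 and 9.05 in the females. Markers of injured tubule (6 genes) lay between 6.17 and 6.77 in wild type, at 8.82 and 9.10 in the male mutants and between 7.32 and 8.75 in the females. Loop and distal tubule markers (6 genes) were at 9.07 and 8.65 in the male mutants, against 9.31 and 9.47 in wild type and at least 9.51 in the females. Collecting duct markers (6 genes) were at 7.21 and 6.83 in the male mutants, against 7.70 and 7.76 in wild type and at least 7.55 in the females. Podocyte markers (4 genes) were at 6.87 and 6.78 in the male mutants, against 7.01 and 6.84 in wild type and at least 7.18 in the females. Endothelial markers (5 genes) were at 8.54 and 8.22 in the male mutants, against 8.78 and 8.74 in wild type and at least 8.79 in the females. The liver list lay between 5.82 and 6.38 and the fat list between 5.82 and 6.47 on all arrays. The part of these cell types in the members' differences was not tested.

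**Figure D3:**
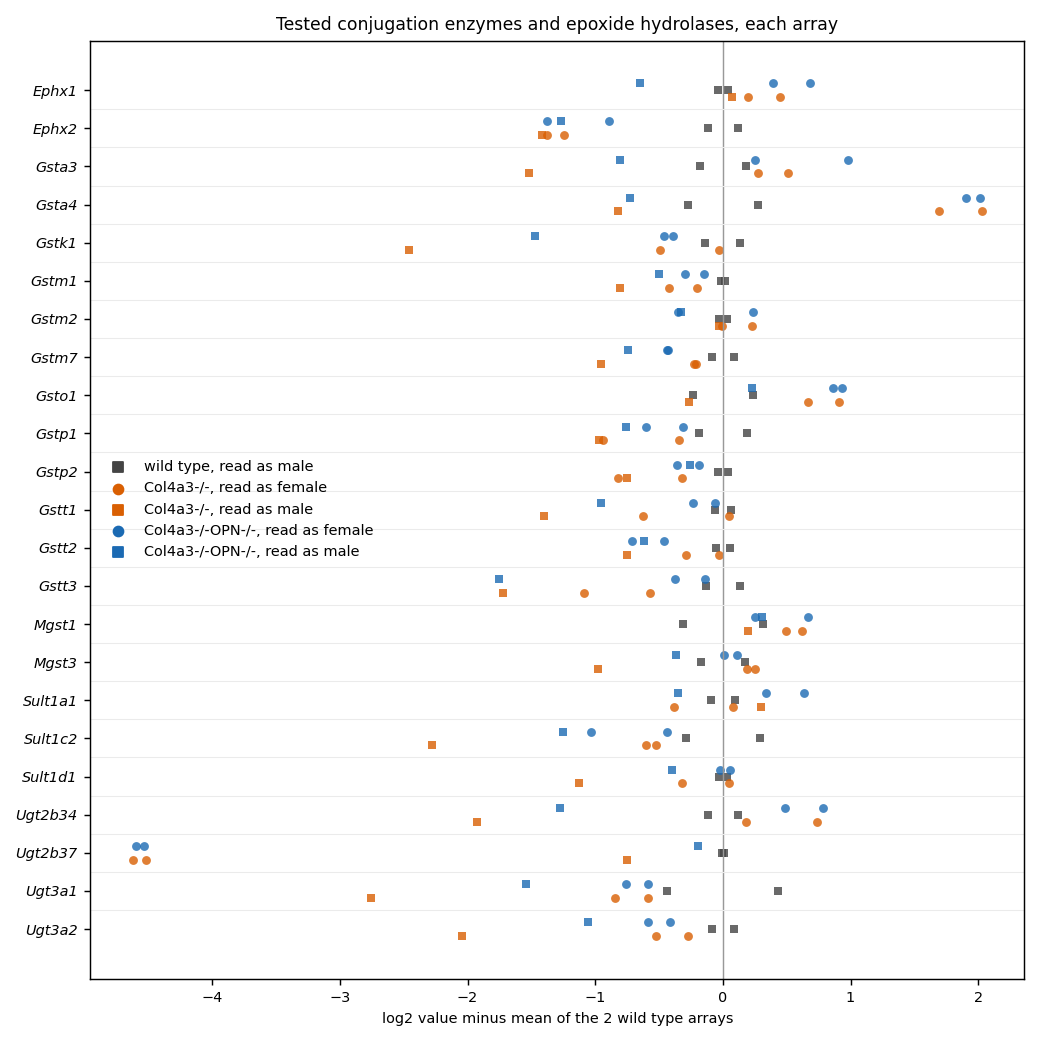
Log2 value of each tested member on each array minus the mean of the 2 wild type arrays, coloured by genotype, with squares for mice read as male and circles for mice read as female. In 19 of 23 members both coloured squares lie to the left of both wild type squares, while the circles lie nearer to 0 in most members and far to the left in Ugt2b37.

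Among the glucuronosyltransferases, Ugt3a1 and Ugt3a2 were lower in mutants and Ugt2b34 and Ugt2b37 separated the sexes. The Ugt3a enzymes, a pair on chromosome 15, use other sugars than glucuronate. Ugt3a1 measured 9.88 and 10.75 in wild type, 9.47, 7.56 and 9.72 in single and 9.73, 9.55 and 8.77 in double mutants. Every mutant lay below both wild type mice, and the males lay lowest. With the sex term Ugt3a1 was 5.15-fold lower in the single mutant (difference -2.37, SE 0.39, adjusted p = 0.0100) and 3.81-fold lower in the double mutant (difference -1.93, adjusted p = 0.0158). Ugt3a2 measured 10.98 and 11.15 in wild type, 10.54, 9.02 and 10.79 in single and 10.65, 10.48 and 10.01 in double mutants, again with every mutant lower. Its differences were -1.68 (SE 0.29, adjusted p = 0.0106) and -1.42 (SE 0.29, adjusted p = 0.0166). In the fit of the groups alone neither gene passed, with Ugt3a1 at -1.40 and -0.96 and Ugt3a2 at -0.95 and -0.69.

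Ugt2b37 (chromosome 5, 87240492 to 87254788) lay above the low range of the members only in males. It measured 9.14 and 9.16 in wild type, 8.40 in the male single and 8.96 in the male double mutant, and 4.53, 4.64, 4.56 and 4.62 in the 4 female mutants. The female values do not overlap the male ones, and they lie within the range of members under the filter. Ugt2b37 passed the filter, with a mean of 6.75 against a limit of 6.64, only through the males, so it had to differ and its difference between the sexes is a description. The fitted female minus male difference was -4.10, and because the female values lie at the low end of the scale no fold is given. The fit of the groups alone gave -3.30 and -3.11 for the single and double mutant, without passing (adjusted p = 0.241 and 0.278). The males alone gave -0.75 and -0.20, and the sex-term fit gave -0.57 (adjusted p = 0.0511) and -0.38 (adjusted p = 0.149).

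Ugt2b34, of the same cluster (chromosome 5, 86889770 to 86906937), went the other way. It measured 7.24 and 7.00 in wild type, 7.30, 5.19 and 7.85 in single and 7.90, 7.61 and 5.84 in double mutants. All 4 female mutants lay above both wild type mice and both male mutants below them, a pattern seen in 3 of 23 members and in 1.58 percent of all tested genes. On the male arrays alone the mean of Ugt2b34 lay under the filter limit of 6.64, so it passed only with the females. Its female minus male difference, 2.15 in the fit (SE 0.20), is therefore a description and is not read against that share. With the sex term Ugt2b34 was lower by -1.77 in the single (SE 0.25, adjusted p = 0.00759) and by -1.44 in the double mutant (SE 0.25, adjusted p = 0.0114), against -0.34 and -0.0020 in the fit of the groups alone. The other 5 Ugt2b genes and Ugt2a3 had means between 4.32 and 4.62. Ugt2a3, chosen after its values were seen, measured 4.90 and 5.25 in wild type and between 4.39 and 4.59 in mutants.

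The alpha-class glutathione S-transferases were the other members that lay on opposite sides of wild type in the sexes. Gsta4 conjugates 4-hydroxynonenal, a product of lipid peroxidation. It measured 8.58 and 8.03 in wild type, 7.49 in the male single and 7.57 in the male double mutant, and 10.00, 10.34, 10.32 and 10.21 in the female mutants. The female values exceeded every male value by more than 1 on the log2 scale. Gsta4 was 6.44-fold higher in female than in male mutants (difference 2.69, SE 0.17, adjusted p = 0.000611). In the fit of the groups alone it differed from wild type by 0.97 in the single and 1.06 in the double mutant without passing. Adjusted for sex, it was lower, by -0.82 (adjusted p = 0.0303) and -0.73 (adjusted p = 0.0469), so the direction depends on that term.

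Gsta3 (chromosome 1, 21240565 to 21265575) had the same order of arrays, with 7.59 and 7.23 in wild type, 5.90 and 6.61 in the male single and double mutant, and 7.69, 7.93, 8.39 and 7.66 in the females. It was 3.17-fold higher in female than in male mutants (difference 1.67, SE 0.23, adjusted p = 0.00876). With sex in the fit, it was lower by -1.35 in the single (adjusted p = 0.0166) and by -0.97 in the double mutant (adjusted p = 0.0464). Without a sex term its differences were -0.24 and 0.14.

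Gstk1, the kappa-class enzyme of mitochondria and peroxisomes, was lowest in the male mutants. It measured 9.58 and 9.85 in wild type, 7.26 and 8.24 in the male single and double mutant, and 9.22, 9.68, 9.26 and 9.33 in the females. The male single mutant lay 5.51-fold below the wild type mean, and single mutant 3 was the 1 mutant to overlap wild type. Once sex was in the fit, Gstk1 was lower by -2.08 in the single (SE 0.32, adjusted p = 0.00927) and by -1.86 in the double mutant (SE 0.32, adjusted p = 0.0120), and it was higher in females by 1.62 (SE 0.26, adjusted p = 0.0136).

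The theta class, 4 neighbours on chromosome 10, had 3 tested members. Gstt3 measured 7.58 and 7.85 in wild type, 6.63, 5.99 and 7.15 in single and 7.58, 7.34 and 5.96 in double mutants. Each mutant value was under both wild type values, double mutant 1 only just. Adjusted for sex, it was 3.80-fold lower in the single (difference -1.93, SE 0.25, adjusted p = 0.00744) and 2.94-fold lower in the double mutant (difference -1.56, SE 0.25, adjusted p = 0.0112). Gstt1, which handles small halogenated compounds, measured 8.87 and 9.00 in wild type, 8.31, 7.53 and 8.98 in single and 8.70, 8.87 and 7.98 in double mutants. Of its females only single mutant 3 lay within the wild type range, and with the sex term it was lower by -1.30 (adjusted p = 0.0118) and -1.06 (adjusted p = 0.0214). Gstt2 measured 9.18 and 9.28 in wild type, 9.20, 8.48 and 8.94 in single and 8.76, 8.52 and 8.61 in double mutants. Single mutant 1 overlapped wild type, the 3 double mutants did not, and only the double mutant passed with the sex term, at -0.81 (adjusted p = 0.0297) against -0.56 (adjusted p = 0.0763). The difference of the mutants for Gstt2, -0.24 (SE 0.19), did not pass.

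The mu and pi classes held both members that passed and a member that did not. Gstm1 measured 8.12 and 8.15 in wild type, 7.71, 7.32 and 7.93 in single and 7.83, 7.99 and 7.63 in double mutants, all below wild type. With sex in the fit, it was lower by -0.73 (adjusted p = 0.0158) and -0.57 (adjusted p = 0.0334). Gstm7 measured 7.27 and 7.45 in wild type, 7.15, 6.40 and 7.13 in single and 6.92, 6.92 and 6.61 in double mutants. Here too no mutant reached wild type, and it was lower by -0.81 (adjusted p = 0.0148) and -0.89 (adjusted p = 0.0133). Gstm2, their neighbour on chromosome 3, lay between 7.71 and 8.30 on all arrays and passed in no comparison. Gstm4, under the filter and chosen after its values were seen, lay at 6.06 and 6.35 in wild type and between 5.52 and 5.82 in mutants.

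Gstp1 and Gstp2 are near-identical neighbours on chromosome 19 that these probe sets may not separate. Gstp1 measured 10.66 and 10.28 in wild type, 9.53, 9.50 and 10.12 in single and 9.87, 10.16 and 9.70 in double mutants. Gstp2 measured 9.43 and 9.34 in wild type, 8.56, 8.63 and 9.06 in single and 9.03, 9.20 and 9.13 in double mutants. No mutant of either genotype or sex overlapped wild type in either gene. Once sex was in the fit, Gstp1 was lower in the single mutant by -0.97 (adjusted p = 0.0271) and Gstp2 by -0.69 (adjusted p = 0.0387). The double mutant did not pass, at -0.77 (adjusted p = 0.0551) for Gstp1 and -0.32 (adjusted p = 0.252) for Gstp2. Gstp2 was the 1 member with an unadjusted p under 0.05 between the mutants, at 0.37 higher in the double mutant (SE 0.15, adjusted p = 1 in limma).

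Gsto1, an omega-class enzyme that reduces dehydroascorbate, and the membrane enzymes Mgst1 and Mgst3 did not pass against wild type in either fit. Gsto1 measured 8.01 and 7.54 in wild type, 7.51 and 8.01 in the male single and double mutant, and 8.44, 8.69, 8.64 and 8.71 in the females. The females lay above every male, by 0.86 in the fit (SE 0.17, adjusted p = 0.0235). Mgst3 measured 8.41 and 8.07 in wild type, 7.26 and 7.87 in the male mutants, and 8.43, 8.49, 8.25 and 8.35 in the females. It was higher in females by 0.81 (SE 0.19, adjusted p = 0.0383). Mgst1 lay at 7.24 and 6.61 in wild type and between 7.12 and 7.60 in mutants, which overlap.

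Of 21 sulfotransferases 3 lay above the filter, and the remaining 18 had means of at most 5.40. Sult1c2 measured 9.55 and 10.12 in wild type, 9.23, 7.56 and 9.31 in single and 8.80, 9.40 and 8.59 in double mutants. Every mutant lay below wild type, and with the sex term it was 3.67-fold lower in the single (difference -1.88, SE 0.38, adjusted p = 0.0145) and 3.14-fold lower in the double mutant (difference -1.65, SE 0.38, adjusted p = 0.0214). Sult1d1, which sulfates catecholamines in the mouse, measured 11.30 and 11.23 in wild type, 11.31, 10.14 and 10.94 in single and 11.32, 11.24 and 10.87 in double mutants. The females other than single mutant 3 reached wild type. It was lower in the single mutant by -0.94 (SE 0.21, adjusted p = 0.0189) and higher in females by 0.70 (SE 0.17, adjusted p = 0.0411), while the double mutant at -0.59 (adjusted p = 0.0724) did not pass. Sult1a1, a phenol sulfotransferase, lay between 7.33 and 8.36 and passed in no comparison. The 8 Sult2a genes, a cluster on chromosome 7 known for steroid substrates, had means between 4.33 and 4.71.

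Among the mutants most members lay higher in females than in males. In the fit with genotype and sex, 12 of 23 members were higher in females, where 8.22 percent of all tested genes were and 10.2 percent were called in either direction. The 1 member called lower, where 1.97 percent of all genes were, was Ugt2b37, which passed the filter only through the males and is not read against that share. An unadjusted p under 0.05 was reached by 16 members, beside 29.9 percent of all genes. The members' median female minus male difference was 0.72 against 0.09 over all tested genes. All 4 female mutants lay above both male mutants in 15 members, beside 29.0 percent of all genes. The counts of 12, 16 and 15 include Ugt2b34, which passed the filter only with the females and is not read against these shares. Taken by genotype, each with 1 male and no test, the members' median was 0.90 in single and 0.52 in double mutants, against 0.06 and 0.13 over all genes. In each genotype 21 of 23 members were above 0, beside 56.54 and 65.67 percent of all genes. After cyclic loess 9 members were higher and 1 lower, and the split of all called genes moved from 587 higher and 141 lower to 343 and 245. Without single mutant 2 the count of higher members was 4 and without single mutant 3 it was 5. Without double mutant 1 it was 6 and without single mutant 1 it was 7. Over all tested genes the higher calls fell from 587 to 111, 193, 237 and 465 in the same order. Gsta4 passed in all 14 settings tried, but Mgst3 in 4 and Gstm7 and Sult1d1 in 3 each. Of the marker means given above, those of injured tubule and late proximal tubule were lower in every female than in either male mutant. The late proximal tubule mean covers opposite directions. Of its 7 genes 3 were called higher and 3 lower in females, with a median of 0.19. Means of loop, collecting duct, podocyte and endothelial markers were higher, and those of early proximal tubule, macrophage and fibroblast markers overlapped. The part of these markers in the members' difference between the sexes was not tested.

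**Figure D4:**
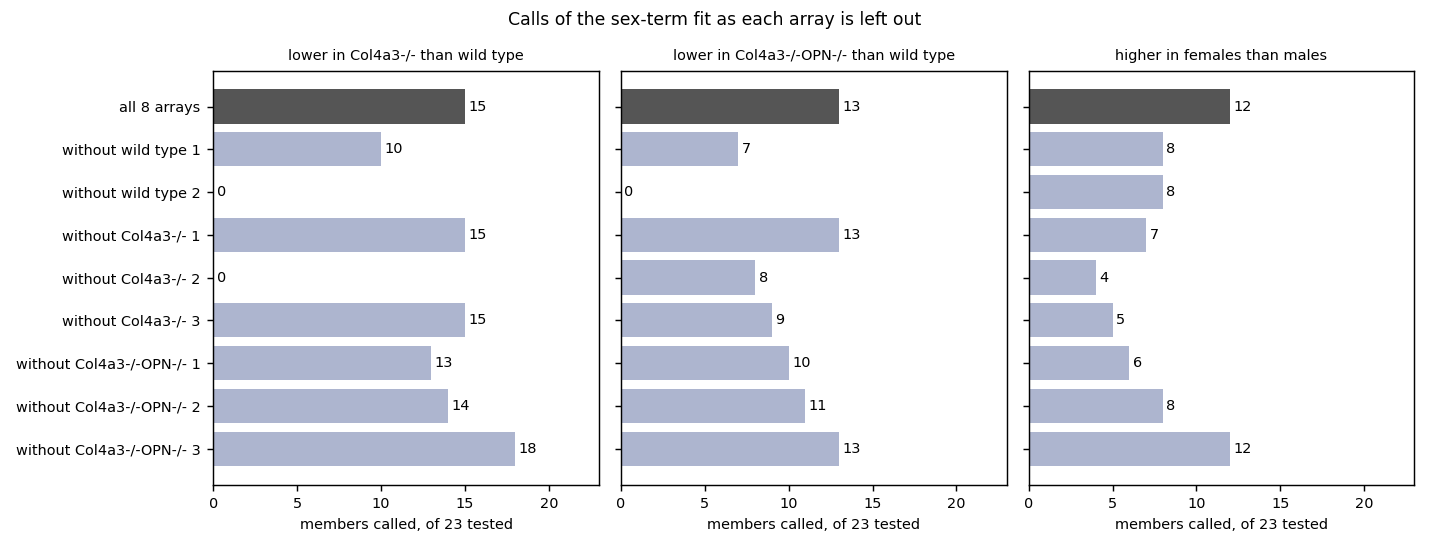
Number of the 23 tested members called in the sex-term fit with all 8 arrays and with each array left out, for members lower in single mutants, lower in double mutants and higher in females. The counts fall from 15 and 13 to 0 without wild type 2, the first falls to 0 without single mutant 2, and the count of members higher in females lies between 4 and 12. Calls over all tested genes fell without these arrays as well.

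Setting double beside single mutants asks what the added loss of osteopontin does to these enzymes when Col4a3 is already missing. Limma called 0 of 23 members in either fit, as it called 0 of all 7145 genes (0 percent), and 1 member had an unadjusted p under 0.05 beside 1.46 percent of all genes, or 3.82 percent when sex was in the fit, where 1 member again did so. The members' median difference was 0.21 against 0.0013 over all tested genes, with 18 of 23 above 0. In females the median was 0.10 with 15 above 0, and in males, 1 mouse per genotype, it was 0.45 with 19 above 0. Over all tested genes these medians were 0.01 and -0.04, with 53.16 and 43.72 percent above 0. Without single mutant 2 the median in the fit of the groups alone was -0.18. All 3 double mutants lay above all 3 single mutants in 0 of 23 members, beside 2.02 percent of all genes, and below them in 0, beside 3.00 percent.

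Several differences between the mutants were larger in the males. Ugt3a1 differed by 0.43 (SE 0.57) in the fit of the groups alone, by 1.21 between the males and by 0.05 between the females. Gsta3 differed by 0.39, Gstt3 by 0.37 and Sult1d1 by 0.35, none passing. Gsta3 and Sult1d1 differed by 0.71 and 0.73 between the males and by 0.22 and 0.15 between the females. Gstt3 instead differed by -0.03 between the males and by 0.57 between the females. Sult1c2 differed by 1.03 between the males and by -0.17 between the females, and Gstk1 by 0.99 and -0.16. Ephx1 and Sult1a1 went the other way, Ephx1 by -0.72 between the males and 0.22 between the females, and Sult1a1 by -0.65 and 0.64. Whether the difference of the mutants itself differed by sex was tested with an interaction term, which called 0 of 23 members in limma, beside 0 percent of all genes. An unadjusted p under 0.05 was reached by 8 members, beside 12.8 percent of all genes, and the smallest adjusted p was 0.135 for Ugt3a2, with a difference of -1.09 (SE 0.26). The interaction was 1.29 for Sult1a1 (SE 0.34, adjusted p = 0.169) and 0.94 for Ephx1 (SE 0.27, adjusted p = 0.212).

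Some genes that supply conjugation or process its products were lower in mutants once sex was in the fit. Of 6 tested genes that supply glucuronate and sulfate, 3 were lower in the single and 4 in the double mutant with the sex term, and 0 were higher. Papss2, which makes the sulfate donor, was lower by -1.60 and -1.39, Ugp2, which makes UDP-glucose, by -1.27 and -1.02, and Bpnt1, which clears the spent sulfate donor, by -1.46 and -1.28. Of 6 genes of glutathione synthesis and recycling, 4 were lower in each mutant, such as Gclm, a subunit of the rate-limiting ligase, at -1.09 and -0.89 and Gss, the synthase, at -1.06 and -1.10. Gclc, the catalytic subunit of that ligase, did not pass, at 0.28 and 0.56. A list around the mercapturate pathway, which trims glutathione conjugates for excretion, had 6 tested genes, all lower in both mutants. Nat8, the last enzyme of the pathway, was at -1.87 and -1.46. Acy1, on the list but not one of the trimming steps, was at -1.89 and -2.38. Without a sex term 0 members of these 3 lists passed.

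Other lists held fewer calls. Of 7 efflux carriers, Abcg2 was lower by -1.37 and -1.05 with the sex term, and Abcc3, Abcc4 and Abcb1b were higher in females by 2.23, 1.45 and 2.01. Among 12 regulators 1 passed, Hnf4a, a transcription factor of the proximal tubule, lower by -0.63 and -0.76. Of 8 NRF2 targets outside conjugation 2 were lower in each mutant, Gclm and the quinone reductase Nqo1, the latter by -1.24 and -0.91. A list of P450s and enzymes of related lipids had 8 tested genes, of which 4 were lower in the single and 2 in the double mutant. Cyp2j11, of a subfamily known to form epoxides, was at -1.76 and -1.83, and Cyp4a12a, known as a hydroxylase, was at -2.29 and -2.07. A list of other transferases and related proteins had 6 tested genes, of which 2 were higher in each mutant and 3 and 2 were lower. The higher ones were Alox5ap, a leukotriene protein of leukocytes, at 1.71 and 2.05, and Clic1, a chloride channel protein, at 0.80 and 1.07, neither of which is a transferase. Among the lower ones was the methyltransferase Tpmt at -1.74 and -1.50. Of 2 deconjugating enzymes 1 was lower in each mutant. All these counts stand beside the shares of all genes given above.

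The 33 members under the filter lay between 4.32 and 5.95 in mean over the 8 arrays. Their differences from wild type ranged from -0.61 to 0.34 in the single and from -0.61 to 0.31 in the double mutant, with medians of -0.04 and -0.02. They were not tested. The member closest to the filter from below was Gstp3 at 5.95 and the closest from above Ugt2b37 at 6.75.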

How the data were processed

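The deposited table gives each array's log2 value for each probe set. The unit was read from the range of the values, 4.20 to 13.43. How the authors normalized them is not stated in the labels or the file, and the values were used as deposited. Of 33793 probe sets 23521 name 1 gene in the platform table, 1814 several and 8458 none. The probe set with the highest mean stood for a gene, and each of the 56 members had 1. Genes whose mean over the arrays exceeded the 75th percentile of probe set means, 6.64, were tested. No background level was set. Precision is limited by having 8 arrays, and p-values rest on the spread between these samples. Each mutant genotype has 1 male, so the spread of males within a mutant genotype was not measured.

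The groups were fitted by lmFit and eBayes of limma 3.58.1 (R 4.3.3), with and without a term for sex, with two-sided p-values adjusted by Benjamini-Hochberg over all 7145 genes. The fits were also run on simulated data with independent genes and no effect of sex. That run cannot show how the sex-term calls behave when the sexes differ. Python 3.11.15 and matplotlib 3.10.9 made the plots. The members and lists were chosen with earlier results of these data known. Every array's value is given for members called in any comparison and for the 5 with the largest differences between groups. Promoters and positions are from RefSeq, GRCm38.p6, which matched 56 members by gene ID, and 48 had a promoter window. Motif shares are over genes. Other settings were no filter, quantile normalization, cyclic loess, a mean of probe sets, an intensity trend with a robust prior, the replicate number as a block and leaving out each array. Males or females alone were added after the data were seen.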

Additional observations from a re-analysis of the deposited data

Results flagged for a closer look

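In 3 members the female and male mutants lay on opposite sides of wild type, and the difference between the sexes passed the test with the sex term. The female minus male difference was 2.69 for Gsta4, 1.67 for Gsta3 and 2.15 for Ugt2b34. In each of them all 4 female mutants exceeded both wild type males and both male mutants fell short of them, which 1.58 percent of all tested genes showed. Ugt2b34 passed the filter only with the females, so its difference is a description and is not read against that share. The comparison with wild type females was not made, since none were measured.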

How the results depend on the processing

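In the fit of the groups alone 0 members were called higher or lower under no filter, quantile normalization, cyclic loess, a mean of probe sets, a robust prior and the replicate block. With the sex term 15 members were lower in the single and 13 in the double mutant, and the medians moved to -0.82 and -0.77. Males alone gave medians of -0.97 and -0.73. With no filter, when 22180 genes were fitted, the sex-term counts were 9 and 6, beside 1077 and 925 lower genes. In that setting 3 members were higher in females, beside 257 genes. As each array was left out, the sex-term counts of lower members ranged from 0 to 18 in the single and from 0 to 13 in the double mutant, and the median of the double mutant ranged from -1.14 to -0.58. The count of members higher in females ranged from 4 to 12. Over all tested genes the lower calls ranged from 0 to 1429 in the single and from 33 to 1195 in the double mutant. Genes called higher in females ranged from 111 to 465. In the groups alone the count of lower members in the double mutant ranged from 0 to 2. The 2 came without single mutant 2, where 298 of all 7145 tested genes were lower and 292 higher. With all arrays these were 2 and 4. The median of double minus single mutant ranged from -0.18 to 0.42. As each array was left out, that difference ranged up to 0.86 for Gsta3 and 0.84 for Ugt3a1. Without single mutant 2 it turned to -0.25 for Gsta3 and -0.24 for Ugt3a1, and without double mutant 1 to -0.03 for Gsta3. Gsta4 in the double mutant turned to -0.73 with the sex term. The causes of these moves were not tested. Same-numbered single and double mutants correlated at 0.256, -0.339 and -0.577 in their deviations from the group means. The first pair was of the same sex and the others of opposite sex, and sex was not removed. These values therefore cannot show whether the numbers pair the mice. With the number as a block the sex-term counts were 16 and 12, beside 1418 and 1318 of all 7145 tested genes. In that setting 11 members were higher in females, beside 560 genes. Of 758 repeats of 56 results on single genes, 582 kept direction and side of the threshold, 164 lost the call, 8 gained it and 4 turned. The sex-term calls in the double mutant held in 3 of 14 settings for Gsta4 and in 5 for Gsta3 and Gstm1. They held in 13 for Ephx2, Gstk1, Gstm7, Gstt3 and Ugt2b34.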
